A study of Mus musculus with 20 samples.

Results

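The neutrophil granule and effector genes are 35 of the 14793 genes in the deposited table of knee joint expression. They were taken by gene symbol and fell into 6 genes of primary granules and promyelocytes, 8 genes of secondary granules and myelocytes, 11 genes of mature neutrophils, 4 genes of the NADPH oxidase and 6 genes that neutrophils share with other myeloid cells. All 35 were in the table and all 35 passed the minimum mean normalized count of 5, which removed 0 genes.

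Bulk RNA sequencing was performed on the right knee joints (subchondral bone, cartilage, capsule and synovium in 1 sample) of male C57BL/6Nci mice. The mice had surgical destabilization of the medial meniscus at 12 weeks of age. Control joints received needle insertion alone. The other joints received injections of adipose-derived mesenchymal stromal cells in weeks 3 and 5 after surgery, either non-activated (MSC), activated with polyinosinic-polycytidylic acid, which engages Toll-like receptor TLR3 (TLR3-MSC), or activated with cGAMP, which engages the STING pathway (STING-MSC). Each group had 10 mice, of which 5 gave a joint for sequencing, so that 20 joints were analysed. All 4 groups had the surgery, and no unoperated joint was analysed here. The stromal cells came from a pool of male donor mice, so the injected preparations share their donors. The study's methods place tissue collection at the end of the follow-up, whereas its results text places it on the day after an injection.

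Neutrophils are made in the bone marrow in a fixed order. Promyelocytes fill the primary (azurophil) granules with myeloperoxidase and serine proteases, myelocytes then make the secondary (specific) granules with lactoferrin and cathelicidin, and mature neutrophils carry abundant S100A8 and S100A9 together with the receptors that guide them to inflamed tissue. Because many granule proteins are made mainly at a single stage, the ratio of these transcripts in a bulk sample is a rough record of the stages present. The joints contained subchondral bone, and the table held transcripts of red cell, B-cell and platelet precursors beside those of cartilage, bone, synovium and muscle. In bulk tissue, more cells of a type and more RNA per cell cannot be told apart.

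Neutrophil transcripts were abundant in every joint. The 35 genes took 2.11% ± 0.511 of all reads in Control joints, 3.2% ± 0.852 in MSC, 2.62% ± 0.551 in TLR3-MSC and 3.07% ± 0.643 in STING-MSC joints (SD, n = 5). Joints had from 27955496 to 52529972 reads on the genes of the table, with a median of 33230113 in Control, 42283681 in MSC, 33141873 in TLR3-MSC and 31917015 in STING-MSC joints. Levels between genes were compared per kilobase of exon, as normalized counts per kilobase in Control joints. On this scale S100a9 (ENSMUSG00000056071, chromosome 3, 90599939 to 90603029) was at 109001 ± 23082 and S100a8 (ENSMUSG00000056054, chromosome 3, 90576285 to 90577343) at 107976 ± 23760.5 (SD, n = 5). These genes encode the subunits of calprotectin, and their levels did not differ beyond their spread. The secondary granule genes Ngp (neutrophilic granule protein) at 77453 ± 19993 and Camp (cathelicidin) at 53064 ± 13261 came next, followed by Lyz2 (lysozyme) at 25498 ± 3970.5 and Ltf (lactoferrin) at 20351 ± 5287. Among primary granule genes, Elane (neutrophil elastase, ENSMUSG00000020125, chromosome 10, 79722081 to 79724050) was at 12762 ± 3517 and Mpo (myeloperoxidase) at 4250.2 ± 1208. The lowest of the 35 were Trem1 at 209 ± 57.9, Gfi1 at 199 ± 45.4 and Alox5ap at 165 ± 32.5. Coordinates are GRCm39. Prtn3 and Elane lay 3071 bases apart on chromosome 10, Fpr1 and Fpr2 3882 bases apart on chromosome 17, and S100a8 and S100a9 22595 bases apart on chromosome 3. Of the 35 genes, 8 overlapped another protein-coding gene (Prtn3, Pglyrp1, Cyba, Cybb, Ncf1, Fpr2, Serpinb1a and Itgb2l). No strand setting was given for the counting, so reads of such overlaps cannot be told apart. Fpr2 and Lyz2 also have close copies (Fpr3 and Lyz1) with which they may share reads.

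The start regions of Elane, Ltf and S100a9 are shown as examples of a primary granule, a secondary granule and a mature neutrophil gene. Each is the RefSeq promoter (table of build GRCm38.p6), found again as a single exact match in GRCm39. It covers the 250 bases before the RefSeq start, less the bases that lie inside the gene as deposited. Capitals mark matches, on either strand, to the C/EBP core TTGCNNAA, the RUNX core TGTGGT or the ETS sequence GAGGAAGT, which is typical of PU.1. These factors are known regulators of granulocyte development.

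Elane (chr10:79721896-79722080, plus strand): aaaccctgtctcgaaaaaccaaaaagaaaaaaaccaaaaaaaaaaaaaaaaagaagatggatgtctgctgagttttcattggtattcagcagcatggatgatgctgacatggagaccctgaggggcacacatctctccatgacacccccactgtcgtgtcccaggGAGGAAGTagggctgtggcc

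Ltf (chr9:110848110-110848338, plus strand): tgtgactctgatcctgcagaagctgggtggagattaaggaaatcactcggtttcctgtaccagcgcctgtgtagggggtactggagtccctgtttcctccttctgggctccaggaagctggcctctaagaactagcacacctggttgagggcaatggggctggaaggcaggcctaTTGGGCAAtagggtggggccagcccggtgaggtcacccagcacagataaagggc

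S100a9 (chr3:90603030-90603278, minus strand): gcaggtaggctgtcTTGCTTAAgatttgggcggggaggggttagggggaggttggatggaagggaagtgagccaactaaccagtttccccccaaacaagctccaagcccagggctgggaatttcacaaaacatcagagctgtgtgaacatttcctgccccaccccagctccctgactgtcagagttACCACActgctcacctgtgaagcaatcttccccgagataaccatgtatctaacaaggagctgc

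The Elane match GAGGAAGT began 85 bases before the RefSeq start. In Ltf the C/EBP match TTGGGCAA began 75 bases before the start. In S100a9 a C/EBP match TTGCTTAA began at 236 bases and a RUNX match ACCACA at 64 bases before the start. Promoters were at hand for 31 of the 35 genes and for 27025 genes in all. GAGGAAGT was found in 7 of the 31 (Elane, Mpo, Prtn3, Itgb2l, Olfm4, S100a8 and Ly6g; 22.6%) and in 2.79% of all genes. TTGCNNAA was found in 9 of the 31 (29.0%) and in 10.8% of all genes, and TGTGGT in 4 of the 31 (12.9%) and in 15.9% of all genes. The shorter ETS sequence GGAAGT, which is part of GAGGAAGT, was found in 15 of the 31 (48.4%), all 6 primary granule genes among them, and in 22.2% of all genes. A match is a description of letters in this window and not a site.

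The joints of each group differed in a shared way, and this bears on all comparisons. Control replicate 1 had the highest value of its group for 35 of 35 genes, and Control replicate 4 the lowest for 30 of 35. STING-MSC replicate 2 was the lowest STING-MSC joint for 34 of 35 genes, and MSC replicates 2 and 5 were the lowest MSC joints for 10 and 25 genes. TLR3-MSC replicate 4 was the highest of its group for 29 of 35. MSC replicate 5 also had 296 genes listed at 0, against 0 to 97 in the other 19 joints. For none of the 35 genes did all 5 joints of any treated group lie above all 5 Control joints. Among all genes tested the share without such overlap was 0.737% (MSC), 0.575% (TLR3-MSC) and 0.933% (STING-MSC).

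**Figure D1:**
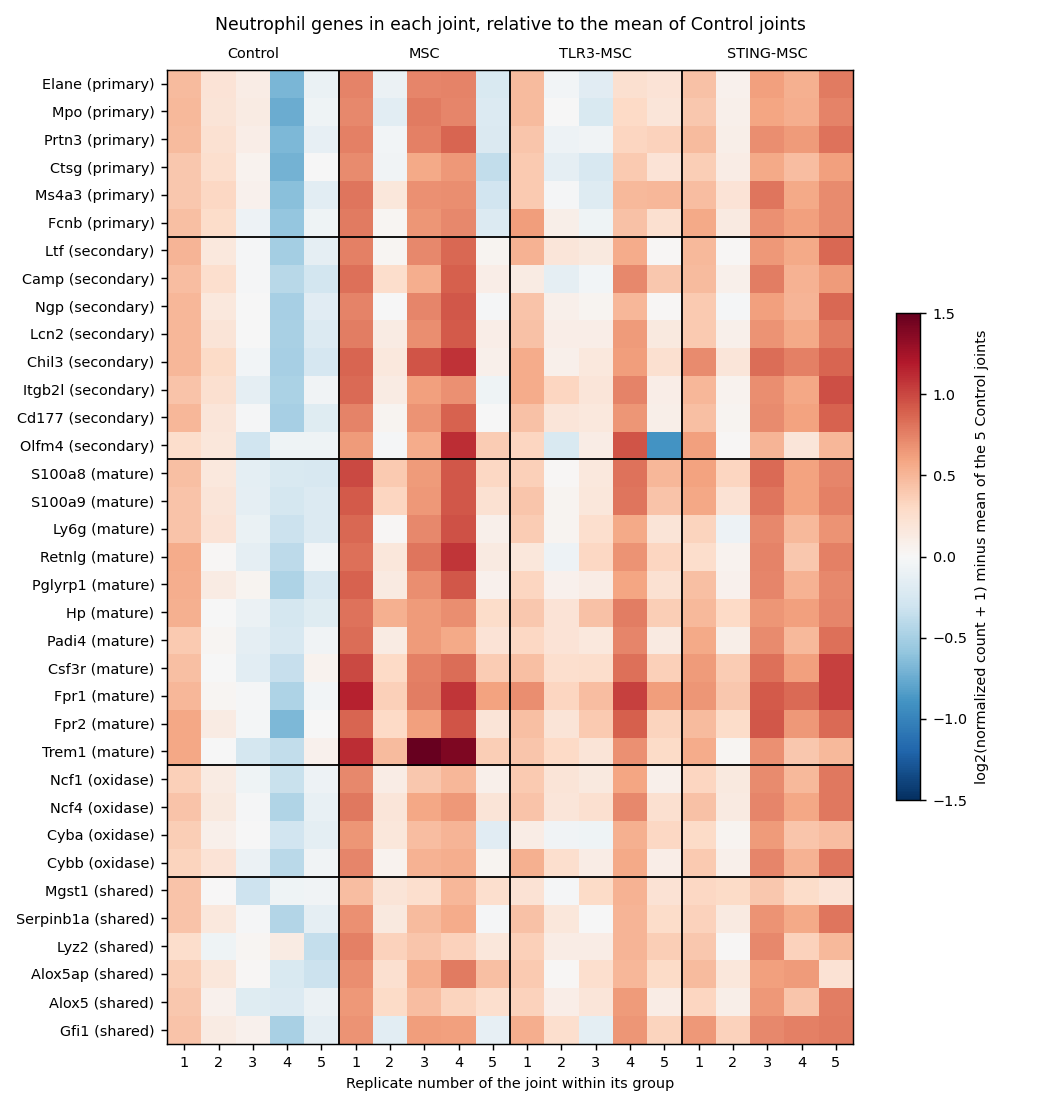
Heat map of the 35 neutrophil genes (rows, by class) in the 20 joints (columns, by group and replicate number). Color is log2(normalized count + 1) minus the mean of the 5 Control joints. Control replicate 1 is above the other Control joints in all 35 rows, and Control replicate 4 is the lowest in 30.

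Neutrophil genes had higher estimates after all 3 stromal cell treatments than in Control joints. Compared with Control, 26 of the 35 genes rose after MSC, 6 rose after TLR3-MSC and 30 rose after STING-MSC, and 0 fell in any of these comparisons (limma, unadjusted p of at most 0.05, the rule behind each statement that a gene rose or fell). By the same rule 5.64% of all genes tested were called higher after MSC, 2.68% after TLR3-MSC and 6.54% after STING-MSC. Called lower were 2.91% of all genes after MSC, 0.906% after TLR3-MSC and 5.69% after STING-MSC. The median log2 fold change of the 35 genes was 0.478 (MSC), 0.284 (TLR3-MSC) and 0.505 (STING-MSC), against -0.036, -0.007 and 0.008 for all genes tested. All 35 estimates were above 0 in each comparison, whereas 42.3%, 47.9% and 51.7% of all genes were. The comparisons share the same 5 Control joints, so that a low or high Control joint moves all of them together.

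The changes were modest. None of the 35 genes combined an unadjusted p of at most 0.05 with a fold change of at least 2. Of all genes, 0.73%, 0.331% and 2.06% did so after MSC, TLR3-MSC and STING-MSC. With shares this small, 0 of 35 genes is no contrast with all genes. With limma 0 of the 35 genes reached an FDR of 0.05 or less, and the background was 0.00676% of all genes for MSC and 0% for each of TLR3-MSC and STING-MSC. Without Control replicate 1, limma gave 3 of the 35 genes this FDR for MSC (0.176% of all genes), and without MSC replicate 2 it gave 2 (0.311%). On the recovered reads edgeR called 0 of them (background 0.101%, 0% and 0% of all genes for MSC, TLR3-MSC and STING-MSC), while DESeq2 called 6 (MSC), 0 (TLR3-MSC) and 2 (STING-MSC), against 0.827%, 0.0203% and 0.576% of the genes to which it gave an adjusted p. The exact permutation test of single genes (two-sided, 5 joints against 5, smallest possible p = 0.00794) gave a p of at most 0.05 for 15 genes after MSC, 3 after TLR3-MSC and 25 after STING-MSC. All of these genes were higher than in Control, and 4.32%, 2.83% and 6.79% of all genes were higher with such a p. The limma counts of 26, 6 and 30 genes at an unadjusted p of at most 0.05 depended on single joints. Without Control replicate 1 they were 33, 17 and 34 (11.2%, 5.48% and 15.7% of all genes were then called in either direction), and without Control replicate 4 they were 17, 2 and 18 (5.76%, 3.21% and 5.87%). The MSC count also fell to 17 without Control replicate 5 (7.65% of all genes) or MSC replicate 1 (6.23%) and to 16 without MSC replicate 4 (6.82%), and the STING-MSC count to 19 without STING-MSC replicate 3 (8.92%). The TLR3-MSC count was 3 without Control replicate 3 (2.81%), Control replicate 5 (2.51%) or TLR3-MSC replicate 1 (3.37%), 2 without TLR3-MSC replicate 4 (2.03%) and 9 without TLR3-MSC replicate 2 (3.69%). Genes past the threshold in every alternative model fit tried (other filters, scalings, tools and joints of the compared groups left out) were Alox5, Alox5ap, Chil3, Csf3r, Fpr1, Fpr2, Hp, Mgst1, Ncf4, Padi4, Pglyrp1, Retnlg, S100a8, S100a9 and Trem1 for MSC (15 genes). For STING-MSC they were Alox5, Alox5ap, Chil3, Csf3r, Cybb, Fpr1, Fpr2, Gfi1, Hp, Itgb2l, Ncf1, Ncf4, Padi4, S100a9 and Serpinb1a (15 genes), and for TLR3-MSC Fpr1 and Hp (2 genes). The exact permutation test was not among these fits, and in it Chil3 (p = 0.0714) and Pglyrp1 (p = 0.0556) did not pass for MSC.

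In a test of any difference among the 4 groups, 18 of the 35 genes passed the unadjusted threshold, against 6.42% of all genes, and 0 passed the FDR in limma and edgeR and 3 in DESeq2. The FDR background was 0% of all genes in limma, 0.0135% in edgeR and 0.671% in DESeq2. Without Control replicate 4 this count of 18 was 5 (4.2% of all genes called), without Control replicate 3 it was 11 (4.68%), without Control replicate 5 it was 7 (5.7%), and without MSC replicate 5 it was 28 (8.17%).

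**Figure D2:**
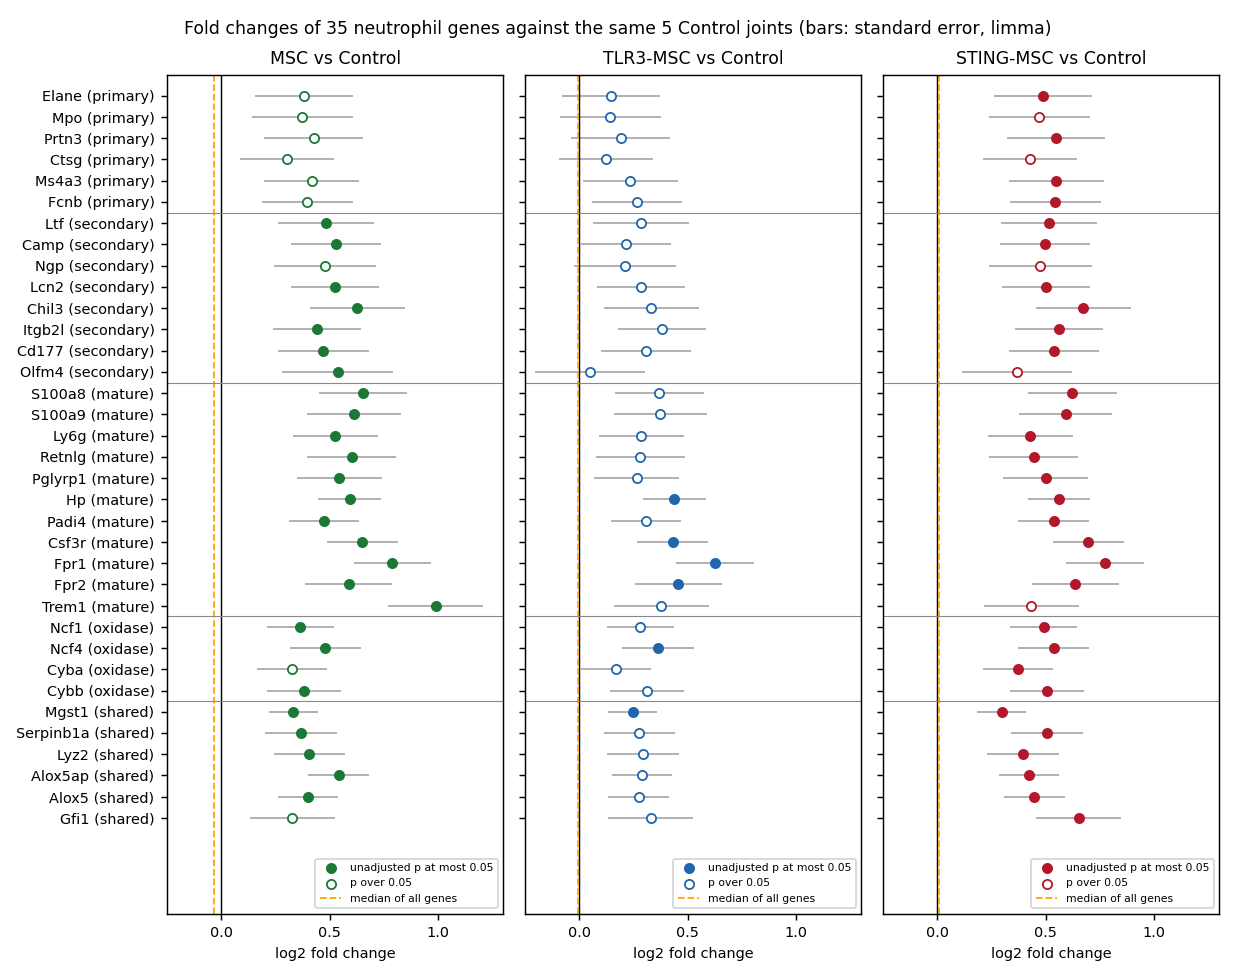
Log2 fold changes of the 35 genes (rows, by class) for MSC, TLR3-MSC and STING-MSC against the same 5 Control joints, with standard errors from limma. Filled points have an unadjusted p of at most 0.05 (26, 6 and 30 genes), and the dashed line is the median of all genes tested. All 35 points lie to the right of 0 in each panel.

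Of the 6 primary granule and promyelocyte genes, 4 rose after STING-MSC, and 0 passed after MSC or TLR3-MSC (limma, unadjusted p). The exact permutation test also passed 3 of these 4 (not Elane). As background for each class, the shares of all genes higher by the limma rule were 5.64%, 2.68% and 6.54% after MSC, TLR3-MSC and STING-MSC. Elane, which encodes neutrophil elastase, had normalized counts (in replicate order) of 16941, 14003, 13086, 7557 and 11330.5 in Control, 20374, 11399, 20236, 20364 and 10419.9 in MSC, 16899.6, 11862, 10797, 14396 and 14074 in TLR3-MSC and 16502, 12738, 18674, 17611 and 20912 in STING-MSC joints. Control replicate 4 was the lowest of the 20 joints, and the STING-MSC joints overlapped the Control range with replicates 1 and 2. Elane rose after STING-MSC (log2 fold change 0.49, standard error 0.23, limma p = 0.0435, exact permutation p = 0.0635, limma FDR = 0.395), and 3 of 5 STING-MSC joints exceeded all Control joints. The other log2 fold changes of Elane were 0.38 after MSC (limma p = 0.107, exact permutation p = 0.262) and 0.14 after TLR3-MSC (limma p = 0.53, exact permutation p = 0.548). Mpo, the myeloperoxidase that makes hypochlorous acid, had normalized counts of 19674, 16080.2, 15294, 8383 and 13376 in Control, 23104, 12546, 24063, 23328 and 12179.8 in MSC, 19436, 13943, 11927, 17262 and 15941 in TLR3-MSC and 18580.2, 14769.7, 21064, 20405 and 23470.5 in STING-MSC joints. In MSC joints the values formed a high set (replicates 1, 3 and 4) and a low set (replicates 2 and 5), and the low set lay within the Control range. The Mpo log2 fold changes were 0.37 with MSC, 0.14 with TLR3-MSC and 0.47 with STING-MSC (standard error 0.23), and none passed (STING-MSC limma p = 0.0582, exact permutation p = 0.0714). The serine protease gene Prtn3 rose by 0.55 on the log2 scale after STING-MSC, as did Ms4a3, a marker of granulocyte and monocyte progenitors, by 0.55, and Fcnb, the ficolin gene, by 0.54 (for Prtn3 limma p = 0.0267, exact permutation p = 0.0397). Ctsg, the cathepsin G gene, had a log2 fold change of 0.43 (limma p = 0.0647, exact permutation p = 0.0476). After MSC, 0 of these 6 genes passed the unadjusted threshold in limma, with log2 fold changes from 0.30 to 0.42, and after TLR3-MSC 0 of 6 passed, with 0.12 to 0.27.

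Secondary granule and myelocyte genes rose after MSC (7 of 8) and after STING-MSC (6 of 8), and 0 of 8 passed after TLR3-MSC (limma, background 5.64%, 6.54% and 2.68% of all genes higher). The exact permutation test passed only 1 of the 7 (Olfm4) and 3 of the 6 (Camp, Chil3 and Itgb2l). Ltf, the lactoferrin that sequesters iron, had normalized counts of 100176, 78913, 69430.5, 49474 and 64152 in Control, 118576, 71966, 116351, 128493 and 72829 in MSC, 100927, 79712, 78078, 103716 and 71537 in TLR3-MSC and 98429, 71323, 110430.0, 104640.0 and 128342 in STING-MSC joints. The 3 highest MSC joints and the 3 highest STING-MSC joints exceeded every Control joint, while MSC replicates 2 and 5 and STING-MSC replicate 2 stood near the middle of the Control range. The log2 fold changes were 0.48 with MSC, 0.28 with TLR3-MSC and 0.52 with STING-MSC (standard error 0.22), for MSC with limma p = 0.0415, exact permutation p = 0.0714 and for STING-MSC with limma p = 0.0307, exact permutation p = 0.0556. Camp, which encodes the antimicrobial cathelicidin, had normalized counts of 62086, 53616, 44495, 33990.3 and 37437 in Control, 79908, 54188, 66187, 84194 and 48602 in MSC, 49252, 41170.3, 43988, 74634 and 59599 in TLR3-MSC and 62746, 47666, 76821, 64777 and 70531 in STING-MSC joints. STING-MSC joints exceeded every Control joint in 4 of 5, and TLR3-MSC joints in 1 of 5. Camp rose by 0.53 after MSC and by 0.50 after STING-MSC on the log2 scale, and its value was 0.21 after TLR3-MSC (limma p = 0.316, exact permutation p = 0.373). Chil3, a chitinase-like protein of myelocytes and alternatively activated macrophages, was the class member with the smallest p among the 4 groups, with normalized counts of 25286, 21902, 17406, 12752 and 15123 in Control, 32915, 19973, 34513, 37961 and 18922 in MSC, 26299.6, 18928, 19953, 27783 and 21270.1 in TLR3-MSC and 29423, 20314, 32033, 30271 and 32946 in STING-MSC joints. Its 4 higher STING-MSC joints exceeded every Control joint, and replicate 2 did not. Chil3 rose by 0.63 after MSC (limma p = 0.00991, exact permutation p = 0.0714) and by 0.67 after STING-MSC (limma p = 0.00625, exact permutation p = 0.0238). Lcn2, the siderophore-binding lipocalin, rose by 0.52 after MSC and 0.50 after STING-MSC, the integrin gene Itgb2l by 0.44 and 0.56, and Cd177, a surface marker of neutrophil subsets, by 0.47 and 0.54 in limma. Their exact permutation p values were 0.0635 and 0.0556 for Lcn2, 0.103 and 0.0397 for Itgb2l and 0.0794 and 0.0556 for Cd177. Olfm4, the olfactomedin of a neutrophil subset, rose after MSC (0.54, limma p = 0.049, exact permutation p = 0.0317), and its value after STING-MSC was 0.37 (limma p = 0.166, exact permutation p = 0.0397). Ngp had log2 fold changes of 0.48 and 0.47 and did not pass (limma p = 0.0574, exact permutation p = 0.103 for MSC and limma p = 0.0592, exact permutation p = 0.0794 for STING-MSC).

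**Figure D3:**
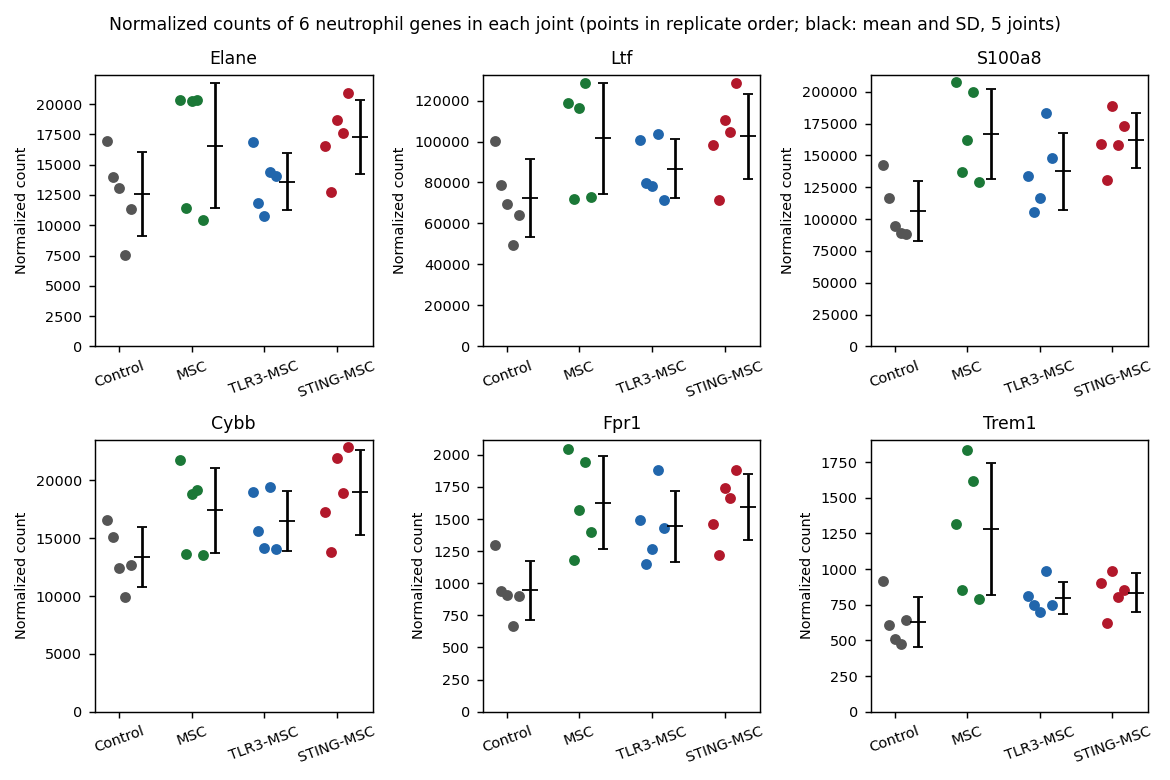
Normalized counts (linear axis from 0) of Elane, Ltf, S100a8, Cybb, Fpr1 and Trem1 in each joint, in replicate order, with the mean and SD of the 5 joints in black. In all 6 panels Control overlaps the treated groups, and Trem1 has its 3 highest joints in MSC.

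Genes of mature neutrophils rose in 11 of 11 cases after MSC, in 10 of 11 after STING-MSC and in 4 of 11 after TLR3-MSC (limma, background 5.64%, 6.54% and 2.68% of all genes higher). Of these calls 9, 7 and 3 also passed the exact permutation test. S100a8 had normalized counts of 142787, 116799, 94533, 89443 and 88220.4 in Control, 207386, 136926, 162205, 199563 and 129549 in MSC, 133711, 105625, 116377, 183601 and 147881 in TLR3-MSC and 159001, 130487, 188531, 158216 and 173482 in STING-MSC joints. All MSC and STING-MSC joints exceeded Control replicates 2 to 5 and overlapped with Control replicate 1, and the TLR3-MSC joints overlapped with Control replicates 1 and 2. S100a8 rose by 0.65 after MSC (limma p = 0.00478, exact permutation p = 0.0238) and by 0.62 after STING-MSC (limma p = 0.00663, exact permutation p = 0.0159), and its log2 fold change was 0.37 after TLR3-MSC (limma p = 0.0866, exact permutation p = 0.103). Its partner S100a9 had normalized counts of 183321, 155032, 124335, 114237 and 118503 in Control, 258650.0, 171435, 214708, 261881 and 160067 in MSC, 183142, 141262, 153557, 238049 and 184289 in TLR3-MSC and 204103, 159045, 238174, 207165 and 231287 in STING-MSC joints. It followed S100a8 closely, with log2 fold changes of 0.61 with MSC, 0.37 with TLR3-MSC and 0.59 with STING-MSC. Ly6g, the surface marker by which mouse neutrophils are identified, had normalized counts of 2436, 2088, 1698, 1448 and 1581 in Control, 3295, 1833, 2989.8, 3528 and 1914 in MSC, 2372, 1862, 2169, 2687 and 2071 in TLR3-MSC and 2286, 1726, 2999, 2542 and 2894 in STING-MSC joints. It rose by 0.52 after MSC (limma p = 0.0153, exact permutation p = 0.0794) and by 0.43 after STING-MSC (limma p = 0.0427, exact permutation p = 0.0635), with 3 of 5 joints of either group above every Control joint. Retnlg, a resistin-like gene, rose by 0.60 and 0.44, Pglyrp1, a peptidoglycan recognition protein, by 0.54 and 0.50, and Padi4, the enzyme that citrullinates histones in extracellular traps, by 0.47 and 0.54 after MSC and STING-MSC. In the exact permutation test Pglyrp1 did not pass (p = 0.0556 and 0.0635), nor did Retnlg after STING-MSC (p = 0.0714).

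The genes that rose in all 3 comparisons with Control in limma were Hp, Csf3r, Fpr1, Fpr2, Ncf4 and Mgst1. For TLR3-MSC the exact permutation test did not pass Fpr2 (p = 0.0794), Ncf4 (p = 0.0635) or Mgst1 (p = 0.119), and Fpr1 and Hp were the genes that passed in every alternative model fit. Fpr1, a receptor for bacterial formyl peptides, had normalized counts of 1301, 941, 912, 668 and 897 in Control, 2048, 1179, 1574, 1942 and 1398 in MSC, 1492, 1153, 1269.5, 1879.8 and 1429.8 in TLR3-MSC and 1465, 1219.5, 1740.4, 1668 and 1882 in STING-MSC joints. In 4 of 5 MSC, 3 of 5 TLR3-MSC and 4 of 5 STING-MSC joints the value exceeded every Control joint, and all 15 treated joints exceeded Control replicates 2 to 5. The Fpr1 log2 fold changes were 0.79 with MSC, 0.63 with TLR3-MSC and 0.77 with STING-MSC (standard error 0.18), with FDR = 0.135, FDR = 0.9997 and FDR = 0.256 in limma. Exact permutation tests gave p = 0.0159, 0.0238 and 0.0159. Csf3r, the receptor for granulocyte colony-stimulating factor, had normalized counts of 7335, 5349.6, 4792, 4212 and 5539.7 in Control, 10604, 6570.0, 9042, 9550.1 and 6953 in MSC, 7322, 6357, 6440.2, 9513 and 6846 in TLR3-MSC and 8317, 6943, 9468, 8188 and 10910.2 in STING-MSC joints. Only Control replicate 1 reached the range of the treated joints. Csf3r log2 fold changes were 0.65 with MSC, 0.43 with TLR3-MSC and 0.70 with STING-MSC (standard error 0.16). Hp, the haptoglobin that binds free hemoglobin and is stored in granules, had normalized counts of 20546, 14146, 13338, 11785 and 12485 in Control, 24835, 20472, 22036, 23039 and 17157 in MSC, 18813, 16293, 19189, 24190.5 and 18225 in TLR3-MSC and 19799.6, 17461, 22473, 21769 and 23538 in STING-MSC joints. All 15 treated joints exceeded the 4 lower Control joints. Hp log2 fold changes were 0.59 with MSC, 0.44 with TLR3-MSC and 0.56 with STING-MSC (standard error 0.14). Fpr2, a related receptor, rose by 0.59 after MSC, 0.46 after TLR3-MSC and 0.64 after STING-MSC. DESeq2 on the recovered reads gave FDR = 0.00869 for Fpr1, 0.0272 for Hp, 0.031 for Csf3r and 0.0414 for S100a8 after MSC, and 0.0244 for Fpr1 and 0.0273 for Csf3r after STING-MSC.

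Trem1 is a receptor that amplifies inflammatory signals in neutrophils and monocytes. Its normalized counts were 914, 608, 508, 471 and 640.2 in Control, 1318, 851, 1837, 1619 and 787 in MSC, 813, 749.6, 701, 987 and 748 in TLR3-MSC and 899.5, 624, 986, 807 and 856 in STING-MSC joints. MSC replicates 1, 3 and 4 were the 3 highest of all 20 joints, whereas MSC replicates 2 and 5 lay within the range of the other groups. Trem1 rose by 0.99 after MSC, the largest of the 35 estimates in that comparison (standard error 0.22, FDR = 0.118 in limma and 0.00273 in DESeq2). The log2 fold changes were 0.38 after TLR3-MSC (limma p = 0.0995, exact permutation p = 0.0873) and 0.43 after STING-MSC (limma p = 0.0618, exact permutation p = 0.0873).

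NADPH oxidase genes rose in 3 of 4 cases after MSC, 1 of 4 after TLR3-MSC and 4 of 4 after STING-MSC (limma, background 5.64%, 2.68% and 6.54% of all genes higher). Of these calls 1 (Ncf4), 0 and 4 also passed the exact permutation test. The complex makes superoxide, with Cybb and Cyba as its membrane subunits and Ncf1 and Ncf4 in the cytosol. Cybb had normalized counts of 16625, 15119.7, 12393, 9953 and 12680.4 in Control, 21792, 13674, 18869, 19199.9 and 13555 in MSC, 19034, 15657, 14192, 19428 and 14069 in TLR3-MSC and 17235, 13849, 21928, 18933 and 22871 in STING-MSC joints. STING-MSC joints exceeded every Control joint in 4 of 5. Cybb rose by 0.38 after MSC (limma p = 0.0391, exact permutation p = 0.0794) and by 0.51 after STING-MSC (limma p = 0.00819, exact permutation p = 0.0317). Ncf1 had normalized counts of 10554, 9014, 7864, 6523 and 7820.4 in Control, 13579.8, 8926, 10875, 11688 and 8730.2 in MSC, 10798, 9418, 9125, 12464 and 8688 in TLR3-MSC and 10297, 9098, 13534, 11546 and 14263 in STING-MSC joints. The 3 highest joints of MSC exceeded Control replicate 1, and MSC replicates 2 and 5 did not. Ncf1 rose by 0.36 after MSC (exact permutation p = 0.0714) and 0.49 after STING-MSC. Ncf4 had normalized counts of 4015, 3305, 2951, 2187 and 2749 in Control, 5176, 3389, 4443, 4675 and 3399 in MSC, 4003, 3371, 3535, 4916 and 3524 in TLR3-MSC and 4044, 3284, 4972, 4445 and 5145 in STING-MSC joints. In limma it rose after all 3 treatments (exact permutation p = 0.0635 for TLR3-MSC), with log2 fold changes of 0.48 with MSC, 0.36 with TLR3-MSC and 0.54 with STING-MSC (standard error 0.16). Cyba rose after STING-MSC (0.37, limma p = 0.0327, exact permutation p = 0.0476) and had a log2 fold change of 0.33 after MSC (limma p = 0.0568, exact permutation p = 0.119).

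Genes shared with other myeloid cells rose in 5 of 6 cases after MSC, 1 of 6 after TLR3-MSC and 6 of 6 after STING-MSC (limma, background 5.64%, 2.68% and 6.54% of all genes higher). Of these calls 4, 0 and 6 also passed the exact permutation test. Lyz2, the lysozyme of neutrophils and macrophages, had normalized counts of 101095, 80066, 85790.0, 91293 and 65666 in Control, 141934, 106659, 111868, 106361 and 94464 in MSC, 107903, 90364, 90997, 119666 and 108722 in TLR3-MSC and 111225, 84869, 138197, 107053 and 117260.0 in STING-MSC joints. In 4 of 5 MSC, 3 of 5 TLR3-MSC and 4 of 5 STING-MSC joints the value exceeded every Control joint. Lyz2 rose by 0.41 after MSC (limma p = 0.024, exact permutation p = 0.0159) and 0.40 after STING-MSC (limma p = 0.0276, exact permutation p = 0.0397). The leukotriene genes were measured together: Alox5 encodes 5-lipoxygenase, and Alox5ap its activating protein. Alox5ap had normalized counts of 809.8, 704, 633, 535 and 501 in Control, 1015, 740.0, 915, 1074 and 856 in MSC, 820.1, 636, 747, 882 and 767 in TLR3-MSC and 868, 707, 959, 978 and 730.1 in STING-MSC joints. It rose by 0.54 after MSC and 0.42 after STING-MSC. Alox5 had normalized counts of 3825, 3035, 2559, 2514 and 2727 in Control, 4538, 3543, 4007, 3646 and 3453 in MSC, 3668, 3111, 3272, 4504 and 3126 in TLR3-MSC and 3618, 3065, 4542, 3869 and 4924 in STING-MSC joints. It rose by 0.40 after MSC and 0.45 after STING-MSC. Both leukotriene genes overlapped Control in each group, through Control replicate 1, and Alox5ap in TLR3-MSC joints also through Control replicate 2. Gfi1, a transcription factor that drives granulocyte differentiation, had normalized counts of 834, 677, 649.7, 443 and 562 in Control, 991, 556, 957, 948 and 568 in MSC, 905, 738, 559, 981 and 782 in TLR3-MSC and 973, 786, 1022, 1049.5 and 1063 in STING-MSC joints. The STING-MSC joints exceeded every Control joint in 4 of 5. Gfi1 rose after STING-MSC (0.65, limma p = 0.00364, exact permutation p = 0.0159), and its log2 fold changes were 0.33 after MSC (limma p = 0.112, exact permutation p = 0.254) and 0.33 after TLR3-MSC (limma p = 0.109, exact permutation p = 0.151). Mgst1, a microsomal glutathione transferase, had normalized counts of 3585, 2678, 2162, 2549.9 and 2582 in Control, 3674, 3057, 3187, 3766 and 3192 in MSC, 3107, 2638, 3259, 3849 and 3109 in TLR3-MSC and 3329, 3254, 3543, 3235 and 3079.6 in STING-MSC joints. All MSC and STING-MSC joints exceeded Control replicates 2 to 5, and Control replicate 1 lay above all STING-MSC joints. Mgst1 rose after all 3 treatments in limma (exact permutation p = 0.119 for TLR3-MSC), with log2 fold changes of 0.33 with MSC, 0.25 with TLR3-MSC and 0.30 with STING-MSC (standard error 0.11). Serpinb1a, an inhibitor of elastase and cathepsin G, rose by 0.37 after MSC (exact permutation p = 0.0952) and 0.51 after STING-MSC.

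Few of these genes were called between the stromal cell treatments. Between STING-MSC and MSC 1 of the 35 genes passed the unadjusted threshold in limma, and it was lower (background 2.77% of all genes higher and 2.17% lower). Between TLR3-MSC and MSC 1 gene passed and was lower (background 1.89% higher and 1.99% lower). Between STING-MSC and TLR3-MSC 0 genes passed in limma (background 0.784% higher and 1.78% lower). In edgeR and DESeq2 0 genes passed as well (background 4.09% and 4.58% of all genes in either direction). The gene in both cases was Trem1, lower by a log2 fold change of -0.56 after STING-MSC than after MSC (limma p = 0.0198, exact permutation p = 0.111, limma FDR = 0.92) and of -0.61 after TLR3-MSC than after MSC (limma p = 0.0115, exact permutation p = 0.0635, limma FDR = 0.978). These comparisons share the MSC joints. Without MSC replicate 3, without MSC replicate 4 or without STING-MSC replicate 2, Trem1 no longer passed between STING-MSC and MSC. None of the 35 genes reached an FDR of at most 0.05 with limma, edgeR or DESeq2 in these 3 comparisons, nor a fold change of at least 2. The FDR background in limma was 0% of all genes in each. For STING-MSC against MSC, TLR3-MSC against MSC and STING-MSC against TLR3-MSC it was 0%, 0.00676% and 0% in edgeR and 0.19%, 0.0474% and 0.0136% in DESeq2, and 0.507%, 0.399% and 0.622% of all genes reached the fold change with the unadjusted p.

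TLR3-MSC joints had lower estimates than MSC joints for 34 of 35 genes (median log2 fold change -0.181, while 57.4% of all genes were above 0 with a median of 0.029), and STING-MSC joints had higher estimates than TLR3-MSC joints for 35 of 35 (median 0.227, against 55.3% of all genes above 0 and a median of 0.021). The median between TLR3-MSC and MSC ranged from -0.288 without MSC replicate 5 to -0.1 without MSC replicate 1. Between STING-MSC and MSC 20 of 35 estimates were above 0 (55.5% of all genes), with a median of 0.045 against 0.022 for all genes. This median changed sign with single joints, to -0.053 without MSC replicate 5, -0.041 without MSC replicate 2, -0.022 without STING-MSC replicate 5 and -0.002 without STING-MSC replicate 3, and was 0.14 without STING-MSC replicate 2. Standard errors of single genes between treatments ranged from 0.11 (Mgst1) to 0.25 (Olfm4) on the log2 scale. The reason for the few calls between treatments was not tested. Without TLR3-MSC replicate 4 the counts were 3 lower between TLR3-MSC and MSC (4.22% of all genes called in either direction) and 2 higher between STING-MSC and TLR3-MSC (3.65%). Without MSC replicate 2 the former was 3, a share below the 9.98% of all genes, and without STING-MSC replicate 2 the latter was 1 (3.47%).

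The balance of the stages was compared within each joint, so that a change of equal size in all classes cancels. The classes did not vary equally between joints. The SD of the primary class mean was 0.425 in Control, 0.481 in MSC, 0.266 in TLR3-MSC and 0.241 in STING-MSC joints. For the mature class mean it was 0.318, 0.341, 0.234 and 0.244. The total level of neutrophil transcripts can therefore enter the balance, and its part was not tested. The mean log2(normalized count + 1) of the 11 mature genes minus that of the 6 primary granule genes was 0.176, -0.035, -0.034, 0.435 and 0.119 in Control joints, in replicate order. It was 0.309, 0.44, 0.209, 0.339 and 0.638 in MSC joints, 0.07, 0.304, 0.558, 0.532 and 0.192 in TLR3-MSC joints, and 0.187, 0.205, 0.253, 0.139 and 0.183 in STING-MSC joints. The means were 0.132 ± 0.193 in Control, 0.387 ± 0.163 in MSC, 0.331 ± 0.212 in TLR3-MSC and 0.193 ± 0.041 in STING-MSC joints (SD, n = 5). The groups overlapped, and the STING-MSC joints spanned the smallest range. Control replicate 4, the joint with the lowest mean of primary granule genes, had the highest Control value. The secondary genes minus the primary genes gave 1.844 ± 0.143 in Control, 1.972 ± 0.136 in MSC, 1.918 ± 0.237 in TLR3-MSC and 1.855 ± 0.053 in STING-MSC joints (SD, n = 5). The mature genes minus the secondary genes gave -1.712 ± 0.083, -1.585 ± 0.072, -1.587 ± 0.132 and -1.662 ± 0.063 in the same order (SD, n = 5). By class, the median log2 fold change for MSC was 0.389 for primary, 0.502 for secondary and 0.6 for mature genes, 0.371 for oxidase genes and 0.383 for shared genes. For TLR3-MSC the class medians were 0.167, 0.284, 0.373, 0.295 and 0.283, and for STING-MSC 0.516, 0.508, 0.561, 0.498 and 0.435. These class means are descriptions over genes, which are not replicates, and were given no test.

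**Figure D4:**
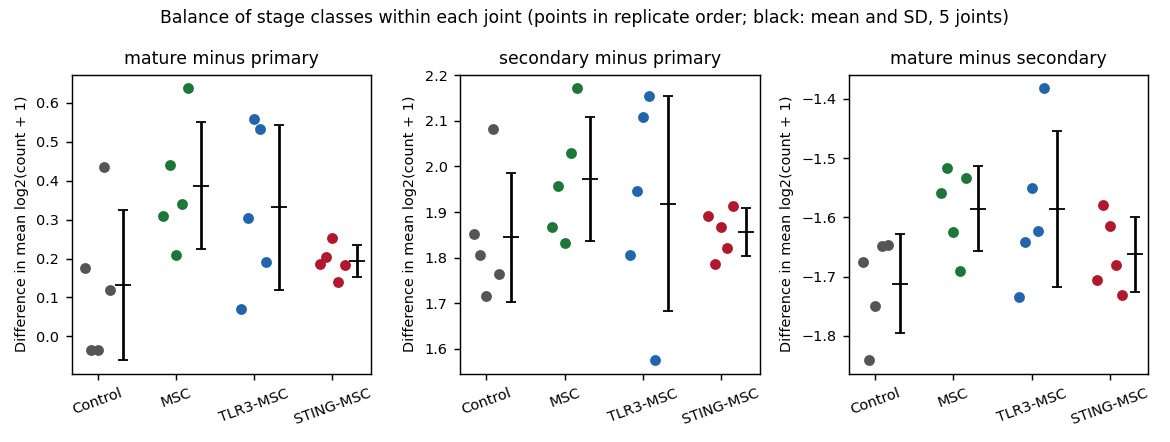
Differences between the class means of log2(normalized count + 1) within each joint, for mature minus primary, secondary minus primary and mature minus secondary genes, with the mean and SD of 5 joints in black. The left panel has means of 0.132 in Control, 0.387 in MSC, 0.331 in TLR3-MSC and 0.193 in STING-MSC joints, and the groups overlap.

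Within groups the genes varied together from joint to joint. After subtraction of group means, the median Pearson r over the 595 pairs of the 35 genes was 0.87, with 434 pairs (72.9%) over 0.8 and the lowest pair at 0.339 (Olfm4 and Lyz2). Within classes the median r was 0.973 for primary, 0.937 for secondary, 0.896 for mature, 0.929 for oxidase and 0.66 for shared genes. Between primary and mature genes it was 0.84. Of the single genes, Olfm4 (0.567), Mgst1 (0.586) and Lyz2 (0.609) had the lowest mean r with the others. All pairs share the same 20 joints and libraries, and these values are a description. The share over pairs of all genes was not computed, so they do not show a trait particular to the neutrophil genes.

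A set of 12 pairs was tested across the 20 joints, with 100000 permutations within groups (two-sided) and Benjamini-Hochberg adjustment over the pairs. Elane and Mpo had r = 0.996 and Spearman's rho = 0.986 (p = 1e-05 for each in the permutation test, the smallest it can give, adjusted p = 4e-05), and r = 0.994 without the 2 joints farthest from the median. S100a8 and S100a9 had r = 0.988 and rho = 0.985 (permutation p = 1e-05 for each, adjusted p = 4e-05; r = 0.983 without 2 joints). Elane and Ltf, genes of successive stages, had r = 0.933 and rho = 0.916 (permutation p = 1e-05 for each, adjusted p = 4e-05; r = 0.915 without 2 joints). Elane and S100a8 had r = 0.778 and rho = 0.815 (permutation p = 0.00071 and 0.0002, adjusted p = 0.0011 and 0.00048; r = 0.763 without 2 joints). The pairs Ltf and Camp (r = 0.828, rho = 0.823), Ltf and S100a8 (0.802 and 0.802), S100a8 and Cybb (0.807 and 0.792) and S100a8 and Lyz2 (0.767 and 0.725) had adjusted permutation p of at most 0.0017, and r from 0.715 to 0.782 without 2 joints.

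Genes of other cell types were set against the neutrophil genes in the same way. S100a8 and the B-cell receptor gene Cd79a had r = 0.613 and rho = 0.653 (permutation p = 0.0033 and 0.0032, adjusted p = 0.0044 and 0.0043; r = 0.596 without 2 joints). Elane and Alas2, the heme synthesis gene of red cell precursors, had r = 0.692 and rho = 0.65 (permutation p = 0.0062 and 0.011, adjusted p = 0.0074 and 0.013; r = 0.662 without 2 joints). Alas2 in Control joints was at 34162, 31125, 23892, 27376 and 47903 normalized counts, highest in replicate 5, where Elane was below its level in replicates 1 to 3, so the pooled r does not describe the Control joints. Groups of 5 joints are too few for a correlation of their own. S100a8 and Alas2 had r = 0.489 and rho = 0.532 (permutation p = 0.062 and 0.04, adjusted p = 0.067 and 0.044; r = 0.497 without 2 joints). S100a8 and C1qa, a gene of tissue macrophages, had r = -0.171 and rho = -0.149 (permutation p = 0.5 and 0.55, the same after adjustment; r = -0.204 without 2 joints). The part of marrow content of the joints in the group differences was not tested.

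**Figure D5:**
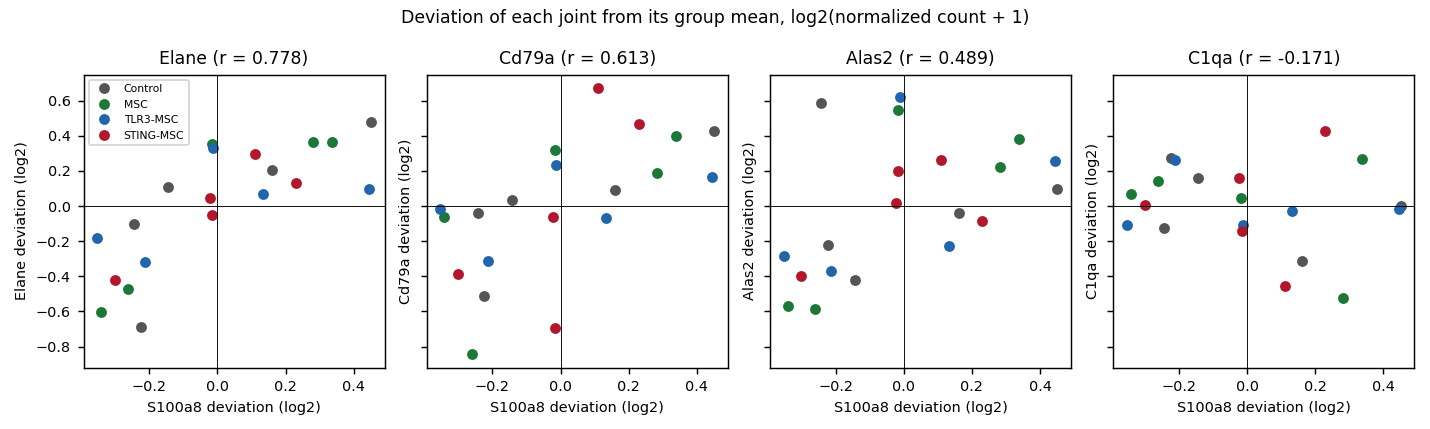
Deviation of each joint from its group mean, in log2(normalized count + 1), for Elane, Cd79a, Alas2 and C1qa (vertical axes) against S100a8 (horizontal axes), colored by group. The points slope upward for Elane (r = 0.778) and Cd79a (r = 0.613), and show no such slope for C1qa (r = -0.171).

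Further genes of neutrophils were also called higher. They were measured in the same 20 joints, against the same 5 Control joints, and were listed with earlier results of these data known. Their calls are therefore not independent of those above. Of 35 further granule and neutrophil genes measured (37 listed), 22 rose after MSC, 8 after TLR3-MSC and 24 after STING-MSC, and 0 fell in limma. By the same rule 5.64%, 2.68% and 6.54% of all genes were higher and 2.91%, 0.906% and 5.69% were lower. Of the 22, 8 and 24 calls, 15, 4 and 18 also passed the exact permutation test. The median log2 fold changes of these 35 genes were 0.454, 0.317 and 0.473. The smallest p after MSC belonged to Clec4d (0.99), Clec4e (1.15), which encode C-type lectin receptors, and Il1r2 (1.11), the decoy receptor of interleukin-1, each with FDR = 0.0647 in limma. After TLR3-MSC, Il1r2 rose by 0.78, Clec4d by 0.53 and the protease gene Mmp25 by 0.49 (exact permutation p = 0.0635 for Mmp25). After STING-MSC, Il1r2 rose by 1.05, Clec4d by 0.72 and Clec4e by 0.78. Between TLR3-MSC and MSC, 4 of the 35 were lower in limma (background 1.99% of all genes lower and 1.89% higher). The smallest p belonged to Clec4e (-0.68), Clec4d (-0.46) and Adam8 (-0.47), and of the 4 only Clec4e passed the exact permutation test.

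Of the 11 chemoattractant, growth factor and receptor genes measured (15 listed), 6 rose after MSC, 4 after TLR3-MSC and 4 after STING-MSC in limma. Of these calls, 4, 3 and 3 also passed the exact permutation test. For this list and the transcription factors below, the limma background was 5.64%, 2.68% and 6.54% of all genes higher. Cxcr2, the receptor for neutrophil chemokines, rose by 0.85, 0.60 and 0.74, and C5ar1, the receptor for complement C5a, by 0.60, 0.42 and 0.53 after MSC, TLR3-MSC and STING-MSC. Cxcr1, the related chemokine receptor, rose by 1.91, 1.51 and 1.60 from normalized counts of only 2.04 to 24.4 in Control joints (exact permutation p = 0.0556 for STING-MSC). Among chemokine ligand genes, Cxcl5 rose after MSC in limma (exact permutation p = 0.0714). The lowest estimates of the list were -0.956 for Cxcl1 after MSC and -0.332 for Cxcl2 after STING-MSC. Both genes had few reads, with normalized counts of 0 to 23.6 for Cxcl1 and 1.21 to 22.4 for Cxcl2. In all, 10, 11 and 9 of the 11 estimates were above 0. Il1b, the interleukin-1 beta gene, rose by 0.93 after MSC (limma p = 0.000159, exact permutation p = 0.00794, limma FDR = 0.104). Its normalized counts were 640.4, 471, 456, 487 and 693 in Control, 932, 775, 1639, 1349 and 726 in MSC, 576, 531, 459.8, 710.5 and 509 in TLR3-MSC and 515, 542, 679.9, 542 and 672 in STING-MSC joints. All 5 MSC joints exceeded all 15 other joints. Of all genes, 0.737% had every MSC joint above every Control joint, 0.548% had every STING-MSC joint below every MSC joint and 0.311% had every TLR3-MSC joint below every MSC joint. As for Trem1, Il1b was lower after STING-MSC (-0.81, limma p = 0.000593, exact permutation p = 0.00794) and after TLR3-MSC (-0.90, limma p = 0.000214, exact permutation p = 0.00794) than after MSC. Of 9 transcription factors of granulopoiesis, 3 rose after MSC (Cebpd by 0.66, Cebpe by 0.56 and Spi1 by 0.37), 2 after TLR3-MSC (Cebpa by 0.30 and Cebpd by 0.31) and 3 after STING-MSC (Cebpe by 0.63, Cebpd by 0.35 and Spi1 by 0.40). In the exact permutation test Cebpe after MSC (p = 0.0794), Cebpa after TLR3-MSC (p = 0.0635) and Cebpd and Spi1 after STING-MSC (p = 0.0635 and 0.0556) did not pass. Cebpe drives the myelocyte stage, and Spi1 encodes PU.1. Cebpd, a factor of the acute-phase response, was lower after STING-MSC (-0.31, limma p = 0.0256, exact permutation p = 0.00794) and TLR3-MSC (-0.35, limma p = 0.0126, exact permutation p = 0.0238) than after MSC.

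Some markers of other cells were called, and estimates above 0 were not particular to neutrophil genes. For all marker lists below, the limma background was 5.64%, 2.68% and 6.54% of all genes higher after MSC, TLR3-MSC and STING-MSC. Called lower were 2.91%, 0.906% and 5.69%. After MSC and STING-MSC estimates above 0 made up 9 and 10 of 10 eosinophil and basophil markers and 7 and 7 of 7 megakaryocyte and platelet markers. After TLR3-MSC they made up 5 of 10 and 3 of 7. Among erythroid markers 2, 8 and 10 of 11 were above 0 after MSC, TLR3-MSC and STING-MSC, and among proliferation genes 7, 3 and 10 of 10. For monocyte and macrophage markers the numbers were 7, 9 and 8 of 14, for B-lineage markers 7, 2 and 2 of 12, and for T and NK markers 7, 5 and 8 of 9. Above 0 were also 3, 1 and 1 of 8 cartilage, 2, 1 and 1 of 8 bone, 2, 0 and 5 of 8 muscle and 4, 5 and 4 of 8 synovial fibroblast markers.

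Of 14 monocyte and macrophage markers, 1 rose after MSC (Ly6c2 by 0.45), 0 after TLR3-MSC and 2 after STING-MSC (Ccr2 by 0.47 and Ly6c2 by 0.49), all markers of monocytes, and none of these calls passed the exact permutation test (p = 0.119, 0.0635 and 0.0556). Their median log2 fold changes were -0.001, 0.065 and 0.015. Their summed normalized counts, to which Ly6c2 gave the most counts in 12 of the 20 joints, Csf1r in 7 and C1qa in 1, were 67588, 57359.5, 70316, 70276 and 60925 in Control, 80683, 68919, 72152, 59360.2 and 63742 in MSC, 72341, 65148, 72636, 70751 and 64665 in TLR3-MSC and 66224, 62817, 82445, 72568 and 65891 in STING-MSC joints. The groups overlapped widely. Of 10 eosinophil and basophil markers, 0 rose after MSC, 0 after TLR3-MSC and 1 after STING-MSC (Siglecf by 0.61), with medians of 0.511, -0.003 and 0.594. Their sums, led by Prg2, were 69388, 53982, 31103, 35123 and 33663 in Control, 68730.1, 45977, 89229, 81956 and 37744 in MSC, 20447, 50312, 39061, 77307 and 45633 in TLR3-MSC and 73445, 31030.5, 81739.8, 64189.6 and 83827 in STING-MSC joints. These sums varied more than 2-fold within each group, and the groups overlapped. Of 5 mast cell markers measured (7 listed), 0 rose after MSC, 2 after TLR3-MSC (Cma1 by 1.14 and Mcpt4 by 1.12) and 1 after STING-MSC (Fcer1a by 0.49), and none of these passed the exact permutation test (p = 0.0873, 0.111 and 0.0714). All 5 mast cell markers had estimates above 0 in each comparison, with medians of 0.33, 1.12 and 0.88. Their sums, led by Cpa3, were 1631, 733, 758, 911 and 641 in Control, 1409, 1174, 1094, 767 and 1150.2 in MSC, 936, 1090.0, 1792, 1509 and 1101 in TLR3-MSC and 1259, 1176, 1261, 1407 and 1286 in STING-MSC joints.

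Of 11 erythroid markers measured, 0 were called in limma in any of the 3 comparisons, and the medians were -0.087, 0.046 and 0.226. Their sums, led by the hemoglobin gene Hbb-bs, had a mean of 1468926 ± 339188 in Control, 1438735 ± 445574 in MSC, 1469021 ± 358609 in TLR3-MSC and 1586459 ± 233789.6 in STING-MSC joints (SD, n = 5). Of 12 B-lineage markers, 0 rose, and 1 fell after STING-MSC (Ebf1, -0.51), with medians of 0.07, -0.15 and -0.118. Of 9 T and NK markers and 7 megakaryocyte and platelet markers, 0 were called in limma, with medians of 0.171, 0.011 and 0.188 for T and NK markers and 0.186, -0.02 and 0.382 for platelet markers. Of 10 proliferation genes, 0 were called in limma, with medians of 0.028, -0.026 and 0.21. Of the cartilage, bone and muscle markers (8 each), 0 were called in limma. In the order MSC, TLR3-MSC and STING-MSC the medians were -0.079, -0.507 and -0.428 for cartilage, -0.225, -0.328 and -0.208 for bone and -0.422, -0.188 and 0.059 for muscle markers. Bone marker sums, led by Col1a1, were 152259, 247746, 552829.6, 533199 and 171128 in Control, 163308, 414124, 252702, 144010.3 and 157335 in MSC, 212286, 259176, 143493, 83308 and 321388 in TLR3-MSC and 185569, 158114, 225035, 137022 and 116286 in STING-MSC joints. The highest of these sums were in Control joints, and Col1a1 had a log2 fold change of -0.88 after STING-MSC (limma p = 0.0574, exact permutation p = 0.0873). Of 8 synovial fibroblast markers, 2 rose after TLR3-MSC (Clic5 by 0.76 and Pi16 by 0.46, the latter with exact permutation p = 0.167) and 1 fell after STING-MSC (Col6a3, -1.77), with medians of -0.147, 0.142 and -0.338. Synovial fibroblast marker sums, led by Prg4, were 253556, 273073, 434306, 625371 and 173742 in Control, 150768, 502196, 198867, 27653 and 345419.5 in MSC, 226931, 403789, 328311, 286452 and 459559.9 in TLR3-MSC and 196692, 208893, 145812, 224394 and 55922 in STING-MSC joints. No gene of these cell marker lists was listed at 0 in any joint, and the part of a different tissue mixture in the neutrophil gene differences was not tested.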

How the data were processed

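Total RNA of 20 joints was sequenced as polyadenylated libraries. Per the labels and the study's methods, the authors aligned reads to GRCm39 with STAR 2.7.3a, counted them with HT-seq on Ensembl 108 and normalized them by the median ratio of DESeq2 in Partek Flow, and the deposited values are a normalized count signal. Strand settings and a low-count filter are not given in the sources used here. Whole reads were recovered for 99.83% to 99.92% of values per joint (tolerance 0.1), with 27955496 to 52529972 reads per joint. Levels were tested as log2(normalized count + 1) with limma 3.58.1 (trend, all 20 joints, no block) under R 4.3.3, over 14793 genes with a mean of at least 5. A fold change is on this scale and understates changes of low genes. The call was an unadjusted limma p of 0.05 or less, and FDR is the Benjamini-Hochberg adjustment over all genes. Exact permutation tests were two-sided over 252 splits. edgeR 4.0.16 and DESeq2 1.42.0 were run on the recovered reads as alternatives, beside other pseudocounts (0.5 and 5), a minimum mean of 20, quantile normalization, a replicate block, fits of the compared groups alone and omission of each joint of the compared groups. The limma, edgeR and DESeq2 fits were tried on simulated counts, drawn independently for each gene with the same dispersion for all genes. Variation shared by genes across joints was not simulated, so that trial says nothing of its effect on the counts of called genes. Values in every joint are given for the reference genes of each class and for up to 4 genes per class with the smallest p over the 4 groups, and of other lists up to 3 genes with the smallest p are named. Il1b values in each joint were added after its test was seen. Members and gene lists were chosen with earlier results of these data known. The labels name no batch.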

Additional observations from a re-analysis of the deposited data

Results flagged for a closer look

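Each gene was examined in each group of 5 joints for a single joint far from the rest (Dixon's ratio above 0.71), which chance flags in about 1 in 20 groups. Of 140 groups, 4 were flagged, where 7 would be expected by chance. Fcnb was low in STING-MSC replicate 2, at a normalized count of 3309.9 against 4472.6 to 4923.6 in the other 4 joints (ratio 0.721). Chil3 was low in the same joint, at 20314.4 against 29422.7 to 32946.3 (ratio 0.721). Hp was high in Control replicate 1, at 20545.9 against 11785.2 to 14146.0 (ratio 0.731). Padi4 was high in TLR3-MSC replicate 4, at 4654.6 against 3051.7 to 3465.7 (ratio 0.742). These 3 joints were also the lowest or highest of their groups for most of the 35 genes, and the genes vary together, so that these values are not separate events. The cause was not tested.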

How the results depend on the processing

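The direction of every called gene held under all alternatives (64 called results, 1152 alternative values, 0 reversed), and 154 of these values no longer passed the unadjusted threshold. Each joint of the compared groups was left out in turn. This gave 16 to 34 called genes for MSC versus Control, 18 to 34 for STING-MSC and 2 to 17 for TLR3-MSC versus Control. Between treatments it gave 0 to 1 for STING-MSC versus MSC, 1 to 3 for TLR3-MSC versus MSC and 0 to 2 for STING-MSC versus TLR3-MSC. For any difference among groups it gave 5 to 28. Joints outside a compared pair of groups were not left out. Quantile normalization gave 22, 4 and 22 called genes for MSC, TLR3-MSC and STING-MSC (8.63%, 3.6% and 12% of all genes) and 12 for any difference (6.29%). It moved the share of higher genes among all called genes from 66% to 79.4% for MSC versus Control, from 56.1% to 44.1% for STING-MSC versus MSC, from 48.6% to 27.5% for TLR3-MSC versus MSC and from 30.5% to 40.6% for STING-MSC versus TLR3-MSC, while the called neutrophil genes kept their direction. With only the groups compared in the fit, STING-MSC versus TLR3-MSC gave 2 called genes, a share below the 8.5% of all genes called, and MSC versus Control 20 (6.14% of all genes). At an FDR of at most 0.05, DESeq2 called 6, 0 and 2 neutrophil genes against Control and 3 for any difference where limma and edgeR called 0. Joints with the same replicate number did not deviate together (r from -0.658 to 0.464), so the numbers do not pair the joints. A replicate block gave 26, 7 and 30 called genes against Control (7.9%, 3.2% and 10.8% of all genes). Between treatments, in the order used above, it gave 1, 1 and 0 (4.27%, 3.27% and 1.97%), and 15 for any difference (5.39%). Depth limits genes with few reads, such as Cxcr1. The cause of the changes with single joints was not tested.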
